A study of Mus musculus with 32 samples.

Results

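The genes described here were the 8 named components of the spindle assembly checkpoint, Bub1, Bub1b, Bub3, Mad1l1, Mad2l1, Mad2l1bp, Ttk and Trip13. They were taken by symbol, and all 8 were found among the 37441 genes of the deposited count table and passed the filter on low counts. They were measured by RNA-seq in oocytes of female mice aged 8 to 12 weeks of the strains B6 and D2 and of their B6xD2 F1 hybrid. Oocytes were taken at the germinal vesicle stage (GV, full-grown oocytes that have not yet resumed meiosis) or at metaphase II (MII, the mature egg). The 32 libraries fell into 6 groups, each of 5 libraries except B6 MII and F1 GV, which had 6, and the labels name no introduced mutation or transgene in any of them. Each library was a pool of 9 to 20 zona-free oocytes of 1 mother, so mothers were the replicates. IBMX, a phosphodiesterase inhibitor that keeps the germinal vesicle intact, was in the medium for GV collection and is not given for MII oocytes, so effects of the agent and of the stage cannot be told apart.

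The spindle assembly checkpoint holds back anaphase until chromosomes are attached to spindle microtubules. At an unattached kinetochore the kinase TTK (also called MPS1) marks the scaffold protein KNL1, BUB3 and BUB1 bind there, and a MAD1 platform converts MAD2 into the form that binds CDC20. CDC20, MAD2, BUBR1 (the product of Bub1b) and BUB3 then form the mitotic checkpoint complex, which inhibits the anaphase-promoting complex, and p31comet (the product of Mad2l1bp) with the ATPase TRIP13 takes that complex apart. In oocytes the checkpoint acts during the meiotic divisions and is known for being less strict than in somatic cells.

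Library depth ran from 18.7 to 39.7 M counts with a median of 28.1 M, and a checkpoint gene had from 20 to 58933 counts in a library. Levels are given in CPM, gene counts scaled to a common library size after correction by the trimmed mean of M values (TMM). Oocyte markers summed to between 6237 and 11264 CPM in every library. The 21 granulosa and cumulus markers summed to between 166 and 4040 CPM in GV libraries and to between 106 and 196 CPM in MII libraries, and in the mean of strains 16 of the 20 tested were lower in MII and 1 was higher. Inha, Inhba and Gja1, markers of granulosa cells, averaged 62.3, 338 and 79.2 CPM in GV and 0.211, 2.91 and 1.04 CPM in MII, and Foxl2 was at 0 in MII. Other markers of the list changed far less. Nr5a2 averaged 110 CPM in GV and 82.9 CPM in MII, Kitl 7.75 and 6.23, and Cyp19a1 30.8 and 31.1. Has2, Ptx3 and Tnfaip6 averaged higher in MII, at low levels. Nr5a2 and Cyp19a1 made up most of the MII sum. The 12 markers of stroma, theca, vessel and blood summed to between 19.6 and 409 CPM in GV and between 32.0 and 78.3 CPM in MII, with 10 lower and 1 higher in MII. Pecam1, at 36.2 CPM in GV and 49.3 CPM in MII, made up most of that MII sum. Fewer attached granulosa cells and less RNA per such cell cannot be told apart in pools. Total RNA per oocyte was not measured, so each difference below is a relative one within a library. Each group held libraries of batch 1 and of batch 2, which were sequenced on different instruments. Batch was a term in the model, and Bub3, Mad2l1 and Mad2l1bp differed between batches, so their values are given by batch.

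The 3′ ends and promoters below show what the genes carry that their selection did not use. In maturing oocytes, cytoplasmic polyadenylation elements (CPEs, here TTTTAT or TTTTAAT on the transcript strand) near the 3′ end are known to guide polyadenylation and translation of stored mRNA. Within the last 100 bases of the GENCODE M21 transcript (GRCm38), such an element was found in Bub1b and Mad2l1 only among the 8 genes, and in 19.5% of 13909 protein-coding genes searched in the same way. The 30 bases around each are shown with the element and the poly(A) signal AATAAA in capitals, for Bub1b at chr2:118641554-118641583 on the plus strand and for Mad2l1 at chr6:66540962-66540991 on the plus strand. The Bub1b element ends 21 bases before the end of the transcript and directly adjoins the poly(A) signal, whereas the Mad2l1 element ends 5 bases before the end and follows the signal. For Mad2l1 this holds for the annotated transcript used, which ends at 66540991. Its RefSeq gene span runs on to 66541107, and its longest annotated coding transcript has 7557 bases.
Bub1b: ttcactgtgtaTTTTATAATAAAatagttt
Mad2l1: tgtAATAAAgaactcttaTTTTAATgtttt
No match in the other 6 genes says only that these letters are absent from that window.

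The 250 bases before 1 RefSeq transcription start per gene are shown for some members. These are the 3 genes whose transcripts rose from GV to MII (Ttk, Mad2l1 and Mad2l1bp, below) and Bub1b, the member with the highest level per length. The bases are from RefSeq (GRCm38.p6), in which all 8 genes matched by symbol. The windows of Ttk and Bub1b end inside the RefSeq gene spans, which begin at 83834651 and 118598202. The second CCAAT of Ttk lies inside its span. Among the other windows searched, those of Bub3, Mad1l1 and Trip13 also reach into the gene span. Capitals mark CCAAT boxes (CCAAT, or ATTGG on the other strand) and the cell-cycle homology motif TTTGAA or TTCGAA (either strand). The windows are chr9:83834439-83834688 on the plus strand for Ttk, chr6:66534971-66535220 on the plus strand for Mad2l1, chr17:46153552-46153801 on the minus strand for Mad2l1bp and chr2:118597961-118598210 on the plus strand for Bub1b.
Ttk: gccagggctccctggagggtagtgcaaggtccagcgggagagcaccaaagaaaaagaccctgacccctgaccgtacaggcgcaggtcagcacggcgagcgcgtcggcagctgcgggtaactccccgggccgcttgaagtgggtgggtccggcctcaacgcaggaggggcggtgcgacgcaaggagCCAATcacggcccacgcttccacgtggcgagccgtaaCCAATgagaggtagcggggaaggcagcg
Mad2l1: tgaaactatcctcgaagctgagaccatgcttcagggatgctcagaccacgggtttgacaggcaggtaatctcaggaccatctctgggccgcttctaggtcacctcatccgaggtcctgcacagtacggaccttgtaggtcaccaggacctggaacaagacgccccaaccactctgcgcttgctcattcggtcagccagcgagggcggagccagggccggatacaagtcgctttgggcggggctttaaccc
Mad2l1bp: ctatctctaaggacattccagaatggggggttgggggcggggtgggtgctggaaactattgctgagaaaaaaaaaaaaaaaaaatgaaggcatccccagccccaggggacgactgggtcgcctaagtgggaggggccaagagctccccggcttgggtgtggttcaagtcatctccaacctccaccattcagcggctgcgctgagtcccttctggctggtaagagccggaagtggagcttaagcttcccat
Bub1b: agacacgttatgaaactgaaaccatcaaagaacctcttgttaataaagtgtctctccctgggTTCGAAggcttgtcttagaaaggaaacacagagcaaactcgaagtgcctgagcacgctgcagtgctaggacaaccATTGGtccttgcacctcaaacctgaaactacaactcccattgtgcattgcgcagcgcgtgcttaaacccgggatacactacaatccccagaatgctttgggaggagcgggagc
Of the 8 promoters, those of Bub1, Bub1b, Bub3 and Ttk held CCAAT, which occurred in 36.4% of 14213 promoters of the same length. The cell-cycle homology motif was found in Bub1b and Bub3, against 14.1% of promoters. Neither motif was found in the windows of Mad2l1 and Mad2l1bp. The GC box GGGCGG (either strand, not in capitals) was found in Bub1, Mad2l1, Mad2l1bp, Ttk and Trip13, so in all 3 genes that rose and in 2 that did not pass, and in 49.1% of promoters. A GC box was thus common among all promoters, and a link of any of these motifs to a change in level was not tested.

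The first comparison set MII against GV oocytes. In the mean of the strains, 3 of the 8 genes rose from GV to MII and none fell: Ttk, the kinase that starts the signal, Mad2l1, the inhibitor of CDC20, and Mad2l1bp, which helps to take the inhibitor complex apart. Ttk rose 1.35-fold, Mad2l1 1.34-fold and Mad2l1bp 2.15-fold, while Bub1, Bub1b, Bub3, Mad1l1 and Trip13 did not pass. DESeq2 also called 3 members and limma-voom 4, Bub1b being the fourth. Of all 19003 genes tested, 51.9% were called in this comparison and 22.9% were called higher, so a call here was common. Those called lower numbered 5508. How often the libraries of 2 groups separate in full was not counted over all genes, for this or any comparison below. The median log2 change was 0.15 over the 8 genes and −0.06 over all genes tested. Tests were two-sided edgeR quasi-likelihood tests with Benjamini-Hochberg adjustment over all genes, with a threshold of 0.05, and errors of log2 changes are SEs.

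**Figure D1:**
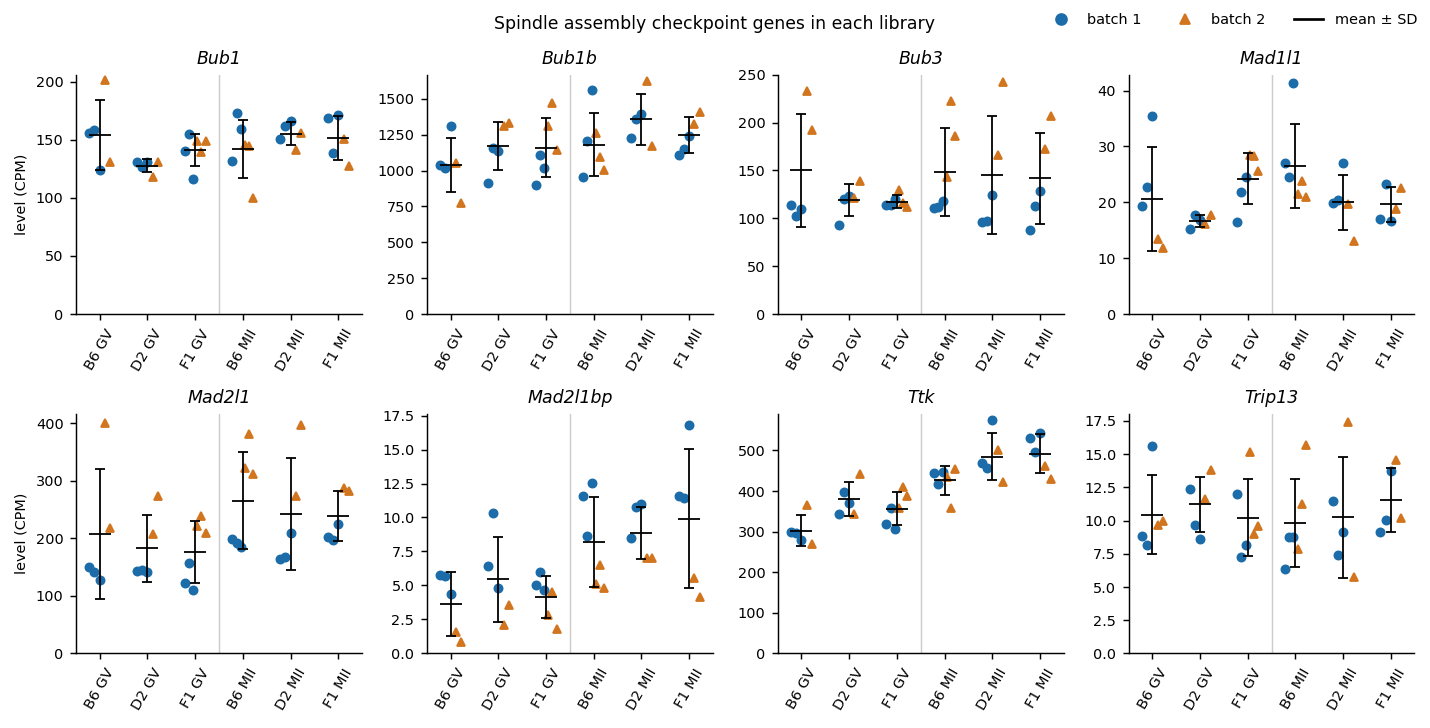
Level of each checkpoint gene in each library (CPM, linear axis from 0), by strain and stage. Circles are batch 1 and triangles batch 2, and black bars are the mean ± SD of a group. In batch 1 all 9 MII libraries lie above all 9 GV libraries for Ttk and Mad2l1, a separation that was not counted over all genes. Within each group the batches stand apart for Mad2l1 and Mad2l1bp. For Bub3 they do so except in D2 GV and F1 GV, where they overlap.

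Ttk (chr9:83834651-83872390; positions of genes are RefSeq spans on GRCm38) encodes the kinase that starts the signal. It was at 300.0, 296 and 279 CPM in the batch 1 libraries of B6 GV and at 366 and 269.8 CPM in batch 2. In B6 MII it ran from 359 CPM through a median of 439.6 to 454 CPM. The B6 groups overlapped by a single MII library, since 5 of 6 lay above every GV library. Ttk in D2 GV was at 345, 398 and 371 CPM in batch 1 and at 344 and 443 CPM in batch 2, against 469, 457, 575, 500.4 and 421 CPM in D2 MII. In F1 GV it ran from 306 through 358 to 411 CPM, and in F1 MII it was at 531, 495, 543, 462 and 429 CPM. All 5 F1 MII libraries lay above every F1 GV library, and 4 of 5 did so in D2. Over all strains 11 of 16 MII libraries exceeded every GV library. The log2 change was 0.44 ± 0.06 (adjusted p = 1.35e-07) in the mean of strains.

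Split by batch, Ttk rose from 330.2 ± 39.7 to 486 ± 52.9 CPM in batch 1 (SD, 9 libraries each) and was at 369 ± 55.1 and 437 ± 43.5 CPM in batch 2 (SD, 7 each). Fitted alone, batch 1 gave 0.54 ± 0.07 (adjusted p = 1.55e-06) and batch 2 gave 0.20 ± 0.10 (adjusted p = 0.14), both higher in MII, the second without passing. In batch 2, 3 of 7 MII libraries lay above every GV library.

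Bub1 (chr2:127800197-127831859) encodes the kinase that binds KNL1 through BUB3 and marks centromeric histone H2A for shugoshin. Its mean level lay between 128 and 155 CPM in all 6 groups, and its log2 change over the strains was 0.09 ± 0.07 (adjusted p = 0.31). In D2 it was at 131, 127, 131, 118 and 131 CPM in GV and at 150.2, 162, 166, 141 and 156 CPM in MII. These D2 groups did not overlap, but the change of 0.28 ± 0.12 did not pass (adjusted p = 0.0821), except without the B6 GV library of batch 2 replicate 1 (adjusted p = 0.0486) or without the 3 granulosa-poor GV libraries described below (0.31 ± 0.12, adjusted p = 0.0419). In B6 the same difference was −0.11 ± 0.12 (adjusted p = 0.53), with GV libraries between 124 and 201 CPM and MII libraries between 99.97 and 173 CPM. The D2 group of GV libraries was the tightest for Bub1, with an SD of 5.56 CPM against 30.3 in B6 GV.

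Bub3 (chr7:131560367-131571895), the WD-repeat partner through which BUB1 and BUBR1 reach the kinetochore, was at 112 ± 9.65 CPM in GV and 109.7 ± 13.5 CPM in MII in batch 1 (SD, 9 each). In batch 2 it was at 149 ± 45.9 CPM in GV and 191 ± 34.4 CPM in MII (SD, 7 each). The stage difference was −0.05 ± 0.09 in batch 1 alone (adjusted p = 0.68), 0.29 ± 0.11 in batch 2 alone (adjusted p = 0.0635) and 0.14 ± 0.09 in all (adjusted p = 0.20). Between the batches Bub3 differed by 0.60 ± 0.09 on the log2 scale (adjusted p = 1.08e-06), which exceeded its stage difference.

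Mad2l1 (chr6:66535221-66541107) encodes MAD2, the protein that MAD1 converts at the kinetochore and that then holds CDC20. In B6 GV it was at 149.7, 142 and 129 CPM in batch 1 and at 401 and 218 CPM in batch 2, and in B6 MII it ran from 185 through 256 to 382 CPM. In D2 GV it was at 143, 145, 141, 209 and 274 CPM and in D2 MII at 164, 167, 209, 274 and 398 CPM. In F1 GV it ran from 111 through 183 to 239 CPM and in F1 MII it was at 203, 197, 226, 287 and 282 CPM. Stages overlapped in every strain when the batches were pooled, and batch 2 was higher by 0.81 ± 0.08 on the log2 scale (adjusted p = 5.06e-11). Within batch 1, however, all 9 MII libraries (164 to 226 CPM) lay above all 9 GV libraries (111 to 156 CPM), and within batch 2 none of 7 (274 to 398 CPM) lay above every GV library (209 to 401 CPM).

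The log2 change of Mad2l1 from GV to MII was 0.42 ± 0.08 over the strains (adjusted p = 1.70e-05). It was 0.47 ± 0.08 in batch 1 alone (adjusted p = 6.53e-05) and 0.25 ± 0.12 in batch 2 alone (adjusted p = 0.17). The highest GV value, 401 CPM, belonged to B6 GV batch 2 replicate 1, which also had the lowest granulosa marker level of all GV libraries. Without that library the B6 change was 0.53 (adjusted p = 0.000907) in place of 0.32 ± 0.13 (adjusted p = 0.067), and without any 1 of 8 others it was between 0.35 and 0.37 (adjusted p from 0.0393 to 0.0498).

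Mad1l1 (chr5:140008689-140321608) encodes MAD1, the kinetochore platform for MAD2, and was far lower, at 20.8 ± 6.40 CPM in GV and 22.3 ± 6.28 CPM in MII (SD, n = 16 each). Its log2 change was 0.10 ± 0.12 (adjusted p = 0.51). By strain it was 0.40 ± 0.21 in B6, 0.24 ± 0.22 in D2 and −0.33 ± 0.21 in F1, none of which passed. Without B6 GV batch 1 replicate 5, at 35.4 CPM the highest GV library, the B6 change was 0.67 (adjusted p = 0.0137). Of its annotated exonic bases, 37 (1.0%) are shared with the antisense gene Gm16121, and how strand was treated in counting is not given in the sources used here.

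Bub1b (chr2:118598202-118641592) encodes BUBR1, the part of the mitotic checkpoint complex that blocks the anaphase-promoting complex as a pseudosubstrate. It averaged 1126 ± 186 CPM in GV and 1256 ± 185 CPM in MII (SD, n = 16 each), and 2 of 16 MII libraries exceeded every GV library. Its log2 change of 0.17 ± 0.08 had an adjusted p of 0.0607, just above the threshold. The change was 0.20 ± 0.09 in batch 1 alone (adjusted p = 0.0695) and 0.07 ± 0.10 in batch 2 alone (adjusted p = 0.67). It was called under 5 of 13 other settings, which were limma-voom, no filter on low counts, a replicate block, the batch term of 3 levels described below (0.16 ± 0.07, adjusted p = 0.0466) and the set without granulosa-poor GV libraries. Over the 13 settings the adjusted p ran from 0.0382 to 0.86. It also passed when any 1 of 7 libraries was left out, with adjusted p between 0.0269 without B6 GV batch 1 replicate 5 and 0.04999 without D2 GV batch 2 replicate 1. The other 5 were D2 GV batch 2 replicate 2, F1 GV batch 2 replicate 2, B6 MII batch 1 replicate 1, B6 MII batch 2 replicate 3 and D2 MII batch 2 replicate 2.

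Of the disassembly factors, Mad2l1bp (chr17:46147385-46153551, p31comet, the adaptor that brings MAD2 to TRIP13) showed the largest change among the 8 genes. In batch 1 it was at 5.77, 5.73 and 4.35 CPM in B6 GV and at 11.5, 8.67 and 12.6 CPM in B6 MII. In batch 2 it was at 1.56 and 0.822 CPM in B6 GV and at 5.12, 6.47 and 4.79 CPM in B6 MII. The B6 stages did not overlap within either batch, and 4 of 6 MII libraries lay above every GV library when batches were pooled. D2 GV libraries were at 6.44, 10.3, 4.84, 2.09 and 3.54 CPM and D2 MII libraries at 8.49, 10.7, 10.97, 7.06 and 7.04 CPM. F1 GV libraries ran from 1.83 through 4.59 to 6.02 CPM and F1 MII libraries were at 11.6, 11.5, 16.8, 5.58 and 4.12 CPM.

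Over the strains, Mad2l1bp rose by a log2 change of 1.10 ± 0.17 (adjusted p = 1.40e-06). Within batch 1, 7 of 9 MII libraries lay above every GV library, with means of 11.4 ± 2.43 and 5.90 ± 1.79 CPM (SD). Within batch 2, 6 of 7 did so, with means of 5.74 ± 1.15 and 2.46 ± 1.27 CPM (SD). The change passed in batch 1 alone (0.94 ± 0.18, adjusted p = 0.000176) and in batch 2 alone (1.32 ± 0.32, adjusted p = 0.00689), alone among the 8 genes in passing in both. Batch 2 was lower than batch 1 by a log2 difference of −1.15 ± 0.18 (adjusted p = 1.17e-06), about as large as the stage difference, and its lowest library rested on 20 counts.

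Trip13 (chr13:73912450-73937795), the ATPase that opens MAD2 together with p31comet, did not move with Mad2l1bp. It was at 10.6 ± 2.56 CPM in GV and 10.5 ± 3.37 CPM in MII (SD, n = 16 each), a log2 change of −0.02 ± 0.15 (adjusted p = 0.91, 95% confidence interval −0.32 to 0.27). Its lowest and highest libraries, at 5.74 and 17.4 CPM, were both D2 MII libraries of batch 2, and in B6 GV 1 library of 5, at 15.6 CPM, stood apart from the others.

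By strain, the log2 change of Ttk was 0.49 ± 0.10 in B6, 0.35 ± 0.10 in D2 and 0.47 ± 0.10 in F1. That of Mad2l1 was 0.32 ± 0.13, 0.39 ± 0.14 and 0.56 ± 0.13, and that of Mad2l1bp 1.43 ± 0.30, 0.85 ± 0.30 and 1.03 ± 0.29, in the same order. All 3 genes passed in D2 and F1, and in B6 Ttk and Mad2l1bp passed. Called members numbered 2 in B6 (26.7% of all genes were called there, 10.3% higher), 3 in D2 (28.7%, 13.1% higher) and 3 in F1 (32.9%, 14.9% higher). DESeq2 called 2, 2 and 3 members in B6, D2 and F1, and limma-voom called 3 in each. The D2 calls changed most often with the processing. Mad2l1 lost its D2 call under 8 of 14 other settings, DESeq2 and median-of-ratios scaling among them, and Mad2l1bp under 6 of 14. Mad2l1 in B6 was called under 4 of 14, limma-voom, no filter, batch 1 alone and the set without granulosa-poor GV libraries. No D2 call was left without D2 GV batch 1 replicate 3, D2 GV batch 1 replicate 5 or D2 GV batch 2 replicate 1. Only Ttk was left without F1 GV batch 1 replicate 3, D2 MII batch 2 replicate 2 or F1 MII batch 1 replicate 4, and only Mad2l1bp without D2 MII batch 1 replicate 4. Mad2l1bp also lost its D2 call without D2 MII batch 2 replicate 1 (adjusted p = 0.0731). Mad2l1 lost its D2 call without any 1 of 15 libraries of all 3 strains, with adjusted p from 0.0512 to 0.19.

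**Figure D2:**
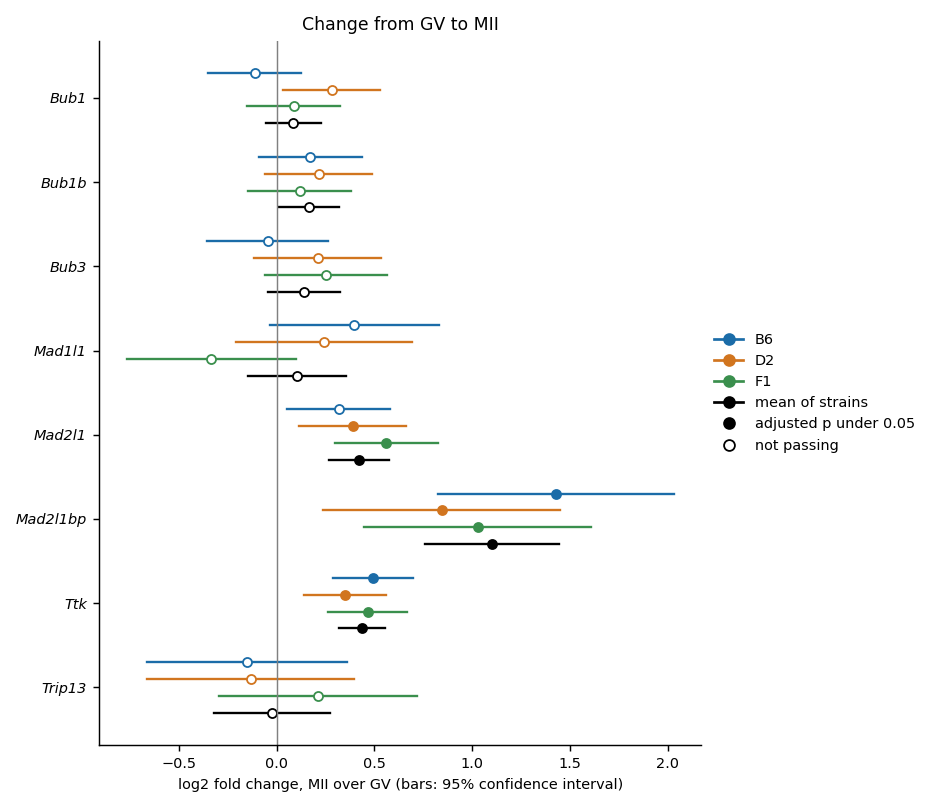
Log2 fold change from GV to MII of each checkpoint gene in each strain and in the mean of strains, with 95% confidence intervals. Filled points passed an adjusted p of 0.05. The points of Mad2l1, Mad2l1bp and Ttk and their intervals lie to the right of 0 in every strain, and the intervals of the other genes include 0 except for Bub1 in D2 and Bub1b in the mean.

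No member's stage change passed a test of the difference between strains. For D2 against B6, 0 of the 8 genes passed (0.105% of all genes did), and 1, Bub1, had an unadjusted p under 0.05 (9.58% of all genes), with a difference of 0.39 ± 0.17 (adjusted p = 0.44). For F1 against the mid-parent, the mean of the parents' log2 levels, 0 passed (0.00526% of all genes did), and 1, Mad1l1, had an unadjusted p under 0.05 (5.32% of all genes), at −0.65 ± 0.26 (adjusted p = 0.89). DESeq2 and limma-voom also called 0 in each. The 95% confidence interval of the D2 minus B6 difference ran from −0.44 to 0.15 for Ttk, from −0.31 to 0.45 for Mad2l1 and from −1.42 to 0.25 for Mad2l1bp.

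The granulosa marker level (mean log2 CPM of the 21 markers) fell with the same stage contrast as Ttk, Mad2l1 and Mad2l1bp rose. With that level added to the model as a covariate, no member was called. The change was then 0.20 ± 0.10 for Ttk (adjusted p = 0.22), 0.04 ± 0.12 for Mad2l1 (adjusted p = 0.89) and 0.93 ± 0.35 for Mad2l1bp (adjusted p = 0.0742). In 3 GV libraries of batch 2, 1 of each strain (B6 replicate 1, D2 replicate 2 and F1 replicate 1), the marker level was −0.16, 0.51 and 0.45, within the MII range, whose highest value was 0.54. Mad2l1bp was at 1.56 to 3.54 CPM in these 3, at 0.822 to 4.54 CPM in the other 4 GV libraries of batch 2 and at 4.12 to 7.06 CPM in its 7 MII libraries, so the granulosa-poor GV libraries lay below every MII library. Mad2l1 was at 222 to 401 CPM in these 3, at 209 to 239 CPM in the other 4 and at 274 to 398 CPM in MII, and the granulosa-poor libraries overlapped the MII range. Ttk was at 358 to 443, 269.8 to 411 and 359 to 500.4 CPM in the same order, and these ranges overlapped. Without the 3 libraries, the changes were 0.49 ± 0.06 for Ttk, 0.51 ± 0.07 for Mad2l1 and 1.10 ± 0.19 for Mad2l1bp, all called. Bub1b was called too (0.19 ± 0.08, adjusted p = 0.0495). The GV libraries left then all had marker levels above the MII range, so this set cannot separate stage from granulosa content.

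The next comparison set the parental strains against each other. Reads of all strains were processed on 1 build, GRCm38.p4. Effects of sequence variants between the strains on read counts were not tested, for these results and those of F1 below. In GV oocytes 1 of the 8 genes differed: Ttk was 1.26-fold higher in D2 than in B6, at 380.1 ± 41.4 against 302 ± 37.6 CPM (SD, n = 5 each). Of all genes 20.5% were called in this contrast and 9.16% were called higher in D2. The log2 difference was 0.33 ± 0.10 (adjusted p = 0.0194), and 3 of 5 D2 libraries lay above every B6 library. It was 0.41 ± 0.12 in batch 1 alone (adjusted p = 0.0243), where all 3 D2 libraries exceeded all 3 B6 libraries, and 0.33 ± 0.18 in batch 2 alone (adjusted p = 0.27), where Bub3 passed instead (−0.68 ± 0.20, adjusted p = 0.0418). Without D2 GV batch 2 replicate 2, at 443 CPM the highest, it did not pass (0.27, adjusted p = 0.0845). In batch 2 all B6 libraries shared 1 number that opens their titles, which not all D2 libraries had. Strain and that number were therefore partly confounded in batch 2 alone. Granulosa markers summed to between 194 and 4040 CPM in B6 GV and between 190.0 and 3815 CPM in D2 GV, and with their level as a covariate the difference of Ttk was 0.36 ± 0.09 (adjusted p = 0.00456).

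In GV the other members gave −0.27 ± 0.12 for Bub1 (adjusted p = 0.12) and 0.67 ± 0.30 for Mad2l1bp (adjusted p = 0.12), the remainder lying between −0.27 and 0.16. Mad2l1bp passed when B6 GV batch 1 replicate 4, D2 GV batch 1 replicate 5 or D2 GV batch 2 replicate 1 was left out (adjusted p between 0.0403 and 0.0459). In MII oocytes 0 of the 8 passed between D2 and B6, against 26.4% of all genes. No member had an unadjusted p under 0.05 there, as 36.5% of all genes did, and DESeq2 and limma-voom called 0. Ttk was at 484 ± 57.8 CPM in D2 MII (SD, n = 5) and 426 ± 35.4 CPM in B6 MII (SD, n = 6), a log2 difference of 0.19 ± 0.10 (adjusted p = 0.17), with 4 of 5 D2 libraries above every B6 library. Mad1l1 had the largest difference in MII, −0.42 ± 0.21 (adjusted p = 0.15), with 1 B6 library at 41.4 CPM and the others between 20.9 and 26.96 CPM. It passed with a batch term of 3 levels, in which batch 2 was parted by the number that opens the library titles (−0.54 ± 0.20, adjusted p = 0.0487).

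**Figure D3:**
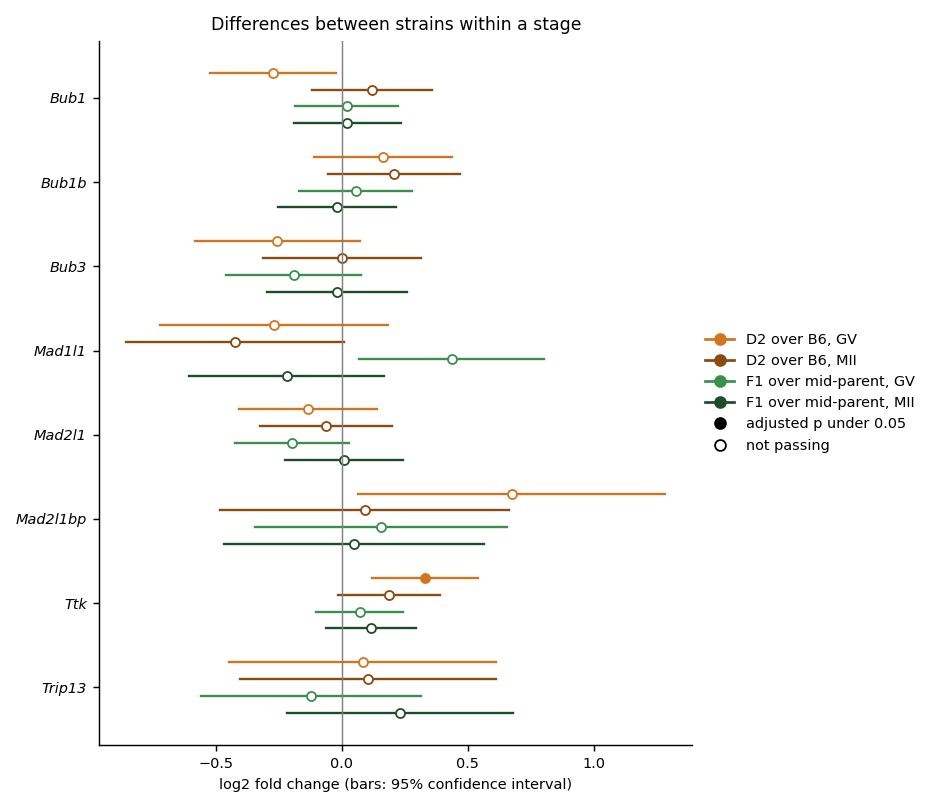
Log2 differences of each checkpoint gene between D2 and B6 and between F1 and the mid-parent at each stage, with 95% confidence intervals. The only filled point, Ttk in D2 against B6 GV oocytes at 0.33, passed an adjusted p of 0.05. The contrasts within a stage share the B6 and D2 libraries.

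The F1 hybrid was then set against its parents. No checkpoint gene passed a test of F1 oocytes against either parent or the mid-parent in the fit to all libraries. Called members numbered 0 for F1 against B6 in GV (5.5% of all genes), 0 for F1 against D2 in GV (6.05%), 0 for F1 against B6 in MII (7.36%) and 0 for F1 against D2 in MII (8.11%). They also numbered 0 against the mid-parent in GV (0.879%) and in MII (1.16%). At an unadjusted p under 0.05 there were 3 members against B6 in GV (Bub3, Mad2l1 and Ttk), 1 against D2 in GV (Mad1l1), 1 against B6 in MII (Ttk), 0 against D2 in MII, 1 against the mid-parent in GV (Mad1l1) and 0 in MII. Of all genes, 17.1%, 16.1%, 21.3%, 21%, 6.97% and 10.7% had such a p in these contrasts, in the same order. DESeq2 and limma-voom called 0 in all 6 contrasts. These contrasts share the F1 libraries.

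Ttk in F1 lay between the parents in GV, at 357 ± 40.1 CPM (SD, n = 6), and was at 492 ± 47.3 CPM in MII (SD, n = 5), where D2 was at 484 and B6 at 426 CPM. Against B6 the difference was 0.24 ± 0.10 in GV (adjusted p = 0.19) and 0.21 ± 0.10 in MII (adjusted p = 0.21). Against D2 it was −0.09 ± 0.10 in GV and 0.02 ± 0.10 in MII. The 95% confidence interval of its difference from the mid-parent was −0.10 to 0.24 in GV and −0.06 to 0.30 in MII.

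Mad1l1 was at 16.5, 21.9 and 24.6 CPM in batch 1 and 28.5, 28.3 and 25.7 CPM in batch 2 of F1 GV. The D2 GV libraries were at 15.2, 17.7, 16.8, 16.2 and 17.7 CPM, and the B6 GV libraries at 19.4, 22.7, 35.4, 13.5 and 11.9 CPM. F1 exceeded every D2 library in 5 of 6 libraries, while F1 and B6 overlapped. The log2 difference from D2 was 0.57 ± 0.21 (adjusted p = 0.13) and from the mid-parent 0.44 ± 0.18 (adjusted p = 0.55). The batches differed in the contrast with B6: Mad1l1 was at −0.30 ± 0.26 in batch 1 alone (adjusted p = 0.88) and at 1.11 ± 0.25 in batch 2 alone (adjusted p = 0.0185). Bub3 in that contrast was at 0.10 ± 0.15 in batch 1 alone (adjusted p = 0.97) and at −0.84 ± 0.18 in batch 2 alone (adjusted p = 0.0143). Batch 2 held 2 B6 GV libraries, at 233 and 192 CPM for Bub3, and 3 F1 GV libraries, at 129.6, 116 and 112 CPM. All B6 libraries of batch 2 shared 1 number that opens their titles, which most of these F1 GV libraries did not have. Strain and that number cannot be fully told apart in the values of batch 2 alone.

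Compared per kilobase of transcript, the members covered a wide range. Bub1b was highest, at 307 ± 50.8 CPM per kilobase in GV and 343 ± 50.4 in MII (SD, n = 16 each). It was followed by Ttk (121 ± 17.2 and 162 ± 18.7), Mad2l1 (109.1 ± 43.04 and 145 ± 43.2), Bub3 (57.8 ± 15.9 and 65.6 ± 21.7) and Bub1 (41.2 ± 6.07 and 43.6 ± 5.56) on the same scale. Far below came Mad1l1 (7.86 ± 2.42 and 8.46 ± 2.38), Mad2l1bp (3.46 ± 1.84 and 7.03 ± 2.75) and Trip13 (3.12 ± 0.75 and 3.08 ± 0.99). In each stage the libraries of neighbours in this order overlapped except between Bub1b and Ttk and between Bub1 and Mad1l1. The parts of the mitotic checkpoint complex (Bub1b, Mad2l1 and Bub3) and both kinases were at higher levels per length than Mad1l1 and the disassembly pair.

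**Figure D4:**
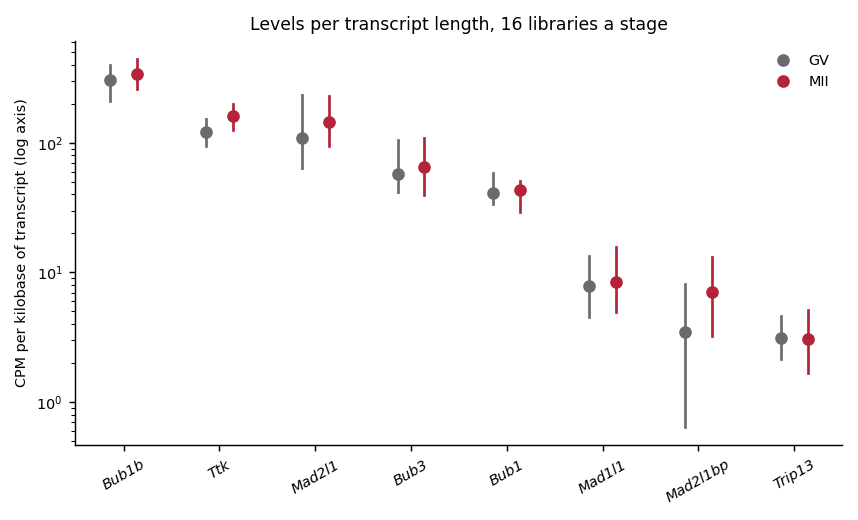
Mean CPM per kilobase of transcript (log axis) of each checkpoint gene in GV and MII, with bars for the range over the 16 libraries of a stage. The bars of Bub1, at a mean of 41.2 in GV, and of Mad1l1, at 7.86, do not overlap.

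Lengths were those of the RefSeq-matched protein-coding transcript, and the order of the upper 5 rests on that choice. For Mad2l1, of 1725 bases, the longest annotated coding transcript has 7557 bases, with which it falls to 24.9 CPM per kilobase in GV, below Bub1. With the shortest coding transcripts Ttk (600 bases) came to 578 and Bub3 (678 bases) to 189 CPM per kilobase in GV.

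Across the 32 libraries, after removal of the batch term, the highest correlation among the 28 pairs of members was that of Mad2l1bp and Ttk (r = 0.79), followed by Mad2l1 and Mad2l1bp (r = 0.65) and Mad2l1 and Ttk (r = 0.65). The median was 0.14. With group means removed as well, the highest was Bub1b with Mad1l1 (r = 0.79), then Bub1 with Mad2l1 (r = 0.65), and Mad2l1bp with Ttk gave 0.29. These values describe libraries that share batch, depth and granulosa content. Mad2l1bp and Trip13, which act together, gave r = 0.00 and 0.06.

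The genes most like a member by Pearson correlation over the same 32 libraries were taken from 8959 named genes of at least 5 CPM. For Mad2l1 they were Scyl2 (r = 0.93) and Nipbl (r = 0.92), for Ttk Ddhd1 (r = 0.92) and Srpk2 (r = 0.92), and for Mad2l1bp Tcl1b3 (r = 0.90) and Tcl1b2 (r = 0.89). For Bub1b they were Mysm1 (r = 0.84) and Lpcat1 (r = 0.83), and for Bub1 Usp9x and Nlrp9c (r = 0.79 and 0.78). For Mad1l1 they were Tmbim1 and Pdcl3 (r = 0.76 and 0.74), and for Bub3 Vdac1 and Rab2a (r = 0.75 each). Trip13 had the weakest likeness, Bysl at r = 0.58 and Glyr1 at r = 0.55. Scyl2, Ddhd1 and Tcl1b3 rose from GV to MII by 0.48 ± 0.07, 0.45 ± 0.06 and 0.97 ± 0.07 on the log2 scale. The stage change was part of the correlation by which they were picked for members that rose. Their rise follows from that choice and is not a separate result.

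The checkpoint's partners were read from 4 lists chosen by function. Of 15 genes of the kinetochore scaffold and of checkpoint recruitment, 7 rose and 4 fell from GV to MII in the mean of strains, with a median log2 change of 0.17 beside −0.06 over all genes tested. Spdl1 (Spindly, the adaptor of kinetochore dynein) rose by 0.43 ± 0.07, whereas 2 subunits of the NDC80 complex fell, Spc24 at −2.81 ± 0.22 and Spc25 at −0.71 ± 0.11. Of 12 kinases and centromere regulators, 7 rose and 2 fell (median 0.23). The 2 that fell were Birc5 (survivin, of the chromosomal passenger complex) at −1.36 ± 0.07 and Cdk1 at −0.74 ± 0.09, and Haspin, the kinase that marks histone H3 for that complex, rose by 0.56 ± 0.06. These shares stand beside the 51.9% of all genes called in this contrast, in which granulosa markers fell too.

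**Figure D5:**
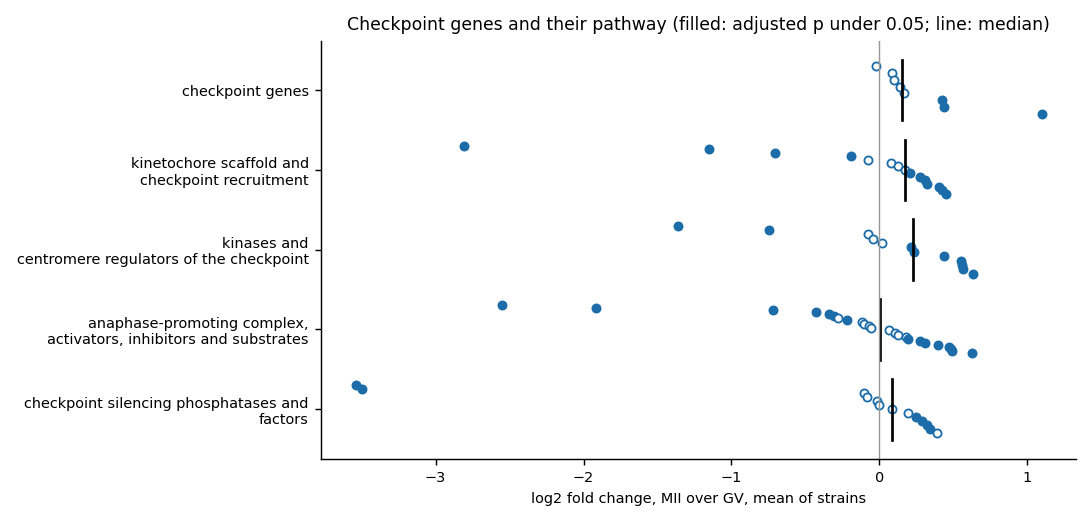
Log2 fold change from GV to MII in the mean of strains for the 8 checkpoint genes and the genes of 4 pathway lists. Filled points passed an adjusted p of 0.05 and the black line is the list's median. The checkpoint genes lie between −0.02 and 1.10, while each of the other lists, all longer, also holds at least 1 gene below −1.

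Of 24 genes of the anaphase-promoting complex with its activators, inhibitors and substrates, the target of the checkpoint, 8 rose and 7 fell (median 0.00). Fbxo43 (EMI2, which holds the egg at metaphase II) rose by 0.63 ± 0.06, and the small subunits Anapc13 and Anapc11 fell, at −2.55 ± 0.21 and −1.92 ± 0.17. Of 13 phosphatases and factors that silence the checkpoint, 4 rose and 2 fell (median 0.09). Ppp2r5c, a B56 subunit of the phosphatase PP2A, was at 0.32 ± 0.06, Ppp1cb, a catalytic subunit of PP1, at 0.34 ± 0.08 and Ppp2cb, a catalytic subunit of PP2A, at −3.50 ± 0.55. With the granulosa level as a covariate 5 of the 12 partner genes named here lost their call: Spdl1 (0.15, adjusted p = 0.46), Spc25 (−0.56, adjusted p = 0.0621), Ppp2cb (−1.96, adjusted p = 0.13), Ppp2r5c (0.17, adjusted p = 0.34) and Ppp1cb (adjusted p = 0.26). Spdl1 and Ppp1cb also lost it in batch 2 alone. No checkpoint gene fell in the mean of strains, and each of the 4 lists held at least 2 genes that did. Each list holds more genes than the 8 members, and of all 19003 genes tested 5508 were called lower. These counts therefore do not set the members apart.

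Between D2 and B6, where 1 checkpoint gene passed in GV and 0 in MII, 6 of the 15 kinetochore genes were lower in D2 GV oocytes and none was higher. Effects of D2 sequence variants on the counts of these partner genes were not tested either. Of the 19003 genes tested, 1740 were higher and 2151 lower in D2 in GV (20.5% called), and 2552 were higher and 2467 lower in MII (26.4% called), which are the shares to read each list's counts against. Ndc80, which binds microtubules and to which TTK docks, was at −1.996 ± 0.17 in GV and −1.62 ± 0.16 in MII (adjusted p = 1.73e-11 and 7.09e-10). Kntc1, of the complex that brings MAD1 and Spindly to kinetochores, was at −0.67 ± 0.11 and −0.51 ± 0.10. The counts were 0 higher and 6 lower in GV and 1 higher and 3 lower in MII for the kinetochore list, and 1 higher and 1 lower in GV and 2 higher and 0 lower in MII for the kinases. Aurkb, the Aurora kinase that corrects attachments, was higher in D2 by 0.73 ± 0.15 in GV and 0.64 ± 0.14 in MII, and Sgo2a, which protects centromeric cohesin, by 0.55 ± 0.12 in MII. Its relative Sgo1 was at −0.54 ± 0.19 in GV, a call lost under 10 of 14 other settings, with a difference of −0.0078 in batch 1 alone, and without any 1 of 18 libraries. Of the anaphase-promoting complex list, 3 were higher and 4 lower in GV and 1 higher and 2 lower in MII. Anapc1, the scaffold subunit, was lower in GV (−0.66 ± 0.11). Pttg1 (securin, a substrate that the checkpoint protects) was lower in D2, at −0.85 ± 0.16 in GV and −1.05 ± 0.15 in MII, and Ccnb1 (cyclin B1) was higher in MII by 0.40 ± 0.10. Among the phosphatase subunits Ppp2r5a was lower in D2 at both stages, at −1.14 ± 0.23 and −1.14 ± 0.22, Ppp2r5d was higher in GV (0.49 ± 0.15) and Ppp2r5e in MII (0.61 ± 0.14). That list had 1 higher and 1 lower in GV and 3 higher and 2 lower in MII. Over 14 other settings Ndc80 and Ppp2r5a at both stages, Aurkb in GV and Pttg1 in MII kept their calls. Ppp2r5d lost its call under 4 and without B6 GV batch 2 replicate 1, Pttg1 in GV and Ppp2r5e in MII under 2, and Kntc1 at each stage, Anapc1 in GV, and Aurkb, Sgo2a and Ccnb1 in MII in 1 batch alone.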

How the data were processed

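RNA-seq read counts per gene were measured in 32 pools of mouse oocytes. The authors deposited raw counts of reads for each gene in 1 table. The submitters' processing notes name HISAT2, SAMtools, featureCounts (Subread 1.5.1) and the build GRCm38.p4. Strand and multi-mapping settings are not given in the sources used here. Of 37444 entries 3 named no gene and held at most 0.019% of a library.

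Genes were filtered with filterByExpr and scaled by TMM. One model with the 6 groups and batch was fitted with edgeR 4.0.16 (robust quasi-likelihood, R 4.3.3), with Benjamini-Hochberg adjustment over 19003 genes in each of 14 contrasts and a threshold of 0.05. SEs are the log2 change divided by the square root of F. Alternatives used DESeq2 1.42.0, limma 3.58.1, other scalings and filters, single batches, a replicate block, a granulosa covariate and each library left out. Leaving out the 3 granulosa-poor GV libraries was chosen after seeing the data. The fit was also run on simulated counts with changes put into D2 MII alone, read for D2 against B6 in MII. No stage or batch effect was simulated, so that run does not bear on the stage contrasts or the batch term. The members and lists were chosen with earlier results of these data known. All members are named, and of each pathway list up to 3 called genes with the lowest adjusted p for the stage and up to 2 for each parental contrast. Labels give each replicate as a separate mother. Python 3.11.15, pandas 2.3.3 and matplotlib 3.10.9 were also used.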

Additional observations from a re-analysis of the deposited data

Results flagged for a closer look

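In 48 sets of libraries (8 genes in 6 groups), 2 had a library far from the others of its group, where chance flags about 1 in 20. Mad1l1 in B6 MII batch 1 replicate 3 was at 41.4 CPM, against 20.9 to 26.96 CPM in the other libraries. Trip13 in B6 GV batch 1 replicate 5 was at 15.6 CPM, against 8.16 to 9.95 CPM. The cause of these values was not tested.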

How the results depend on the processing

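Under 14 settings other than leaving out a library, a checkpoint gene gained or lost a call in 49 of 1552 values, and no called direction reversed. These values cover all 14 contrasts, in most of which no member was called in the main fit. That share is therefore not the share of calls that were lost. Calls lost numbered 11 with the granulosa level as a covariate (0 gained), 10 with batch 2 alone (3 gained) and 5 without a batch term (0 gained). With batch 2 alone, called members numbered 1 in the mean of strains (Mad2l1bp), 1 in B6, 0 in D2, 0 in F1 and 2 for F1 against B6 in GV (Bub3 lower, Mad1l1 higher), and with batch 1 alone 1 in D2 (Ttk). With the granulosa level as a covariate they numbered 0 in the mean of strains and 0 in each of B6, D2 and F1. Without a batch term they numbered 1 in B6, 1 in D2 and 0 for D2 against B6 in GV, with a batch term of 3 levels 1 for D2 against B6 in MII (Mad1l1), and with only the groups compared 0 in D2. Leaving out 1 library at a time gave 0 to 4 called members for the stage change in D2, 0 to 2 for D2 against B6 in GV, 3 to 4 in the mean of strains, 2 to 3 in B6 and 3 in F1. Mad2l1 lost its D2 call without any of 15 libraries and gained a B6 call without any of 9. Same-numbered libraries did not deviate together (r from −0.13 to 0.096, 0 of 11 over 0.1), and with a replicate block 4 members were called in the mean of strains (Bub1b added), with no other call changed. The median-of-ratios scaling moved the all-gene median by at most −0.06. Mad2l1bp, with 20 counts in its lowest library, is limited by depth most.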
